A study of Mus musculus with 6 samples.

Results

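The 6 genes AKR1C1, AKR1C2, AKR1C3, AKR1A1, AKR1B1 and AKR7A2 belong to the aldo-keto reductase superfamily and were followed across the 6 libraries of an RNF11 knockdown experiment. AKR1C1, AKR1C2 and AKR1C3 encode reductases of steroids and prostaglandins, and the other 3 encode reductases of sugars and other aldehydes. They were found by their symbols among the 20499 genes of the deposited table, and all 6 had enough reads to be tested, as had 13489 genes in all. The genes were selected on their measured read counts in shRNF11 against shControl libraries, so their differences between these arms are described here as values, and their passing a threshold is given later as a count from which nothing is read.

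The labels describe AML12 cells, an immortalized line of normal mouse hepatocytes grown with dexamethasone at 40 ng/mL and 10% serum. In 3 libraries a lentivirus had been used to knock down RNF11, a ubiquitin ligase gene (genotype RNF11 knockdown, called shRNF11), and 3 libraries came from cells of the genotype WT with a control hairpin (shControl). Cells of both arms had spent 6 h at 1% oxygen without glucose or serum and were then returned to complete medium in normal air, a culture model of ischemia and reperfusion. No library without hypoxia was analysed here. The labels name neither the hairpin sequence nor separate cultures behind the replicates, so the spread behind the p-values is that of these 6 libraries and could be technical.

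Aldo-keto reductases use NADPH to turn aldehydes and ketones into alcohols. The AKR1C enzymes work on ketosteroids, prostaglandins and bile acid precursors and so set the local level of active hormones, and in human cells their genes are known targets of the oxidative stress factor NRF2. In the liver, aldo-keto reductases also clear reactive aldehydes made from lipids, sugars and toxins.

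The table goes against the labelled organism and cell type, so the values below are not taken as those of mouse hepatocytes. Of its 20499 Entrez numbers 0 were found among 49997 mouse RefSeq genes, and 6391 genes carried human KEGG terms against 0 with mouse ones. The AKR1C symbols are also human: 8 mouse RefSeq genes have an Akr1c symbol with a number, and 0 of them have the official symbol Akr1c1, Akr1c2 or Akr1c3. Of 18 hepatocyte markers 13 had a row and 0 passed the filter on low counts, and they summed to 0.672 to 0.930 CPM in shControl and 0.552 to 1.10 CPM in shRNF11. CPM is the read count of a gene divided by the TMM-scaled library total and multiplied by 1000000. Of 6 bile duct markers 3 were listed, and their sum, nearly all of it from the keratin gene KRT7, was 2280 to 2363 CPM in shControl and 2622 to 2688 CPM in shRNF11. The 8 fibroblast markers summed to 74.1 to 97.4 CPM in shControl and 67.9 to 95.7 CPM in shRNF11. Within that sum ACTA2 fell from 5.84 to 2.83 CPM (edgeR adjusted p = 3.10e-06), while LUM rose from 1.44 to 3.42 CPM (edgeR adjusted p = 3.51e-05). COL1A2 rose from 1.65 to 4.41 CPM (edgeR adjusted p = 0.0114), with overlapping arms and 0.429 to 7.36 CPM among the shRNF11 libraries. The largest parts of the sum, COL1A1 (29.9 and 28.1 CPM) and DCN (28.9 and 31.0 CPM), did not pass. Nor did COL3A1 and PDGFRB, and DES had too few reads for a test. The 3 listed macrophage markers of 7 summed to 49.1 to 53.6 and 43.3 to 47.5 CPM, nearly all of it from CD68, which fell from 49.2 to 43.5 CPM (edgeR adjusted p = 0.00857), while CD14 and CSF1R did not pass. The 4 listed endothelial markers of 6 summed to at most 3.44 CPM in any library. KRT7, CD68, ACTA2 and LUM thus moved with the arm, and their part in the results was not tested. In such bulk samples, more cells of a kind and more RNA per cell cannot be told apart.

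Library totals lay between 37485850 and 39045440 reads. RNF11 fell to 15.3 ± 0.475 CPM from 51.0 ± 1.69 CPM (SD, n = 3 each), in all 3 libraries of its arm (edgeR adjusted p = 3.48e-28). Library shRNF11 1 lay apart from the other libraries of its arm on the second principal component, which held 16.6% of the variance, so the members' values are also given without it.

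The AKR1C genes differed most among the 6, at 1.89 to 2.45 times their control levels. AKR1C1 (Entrez 1645) encodes the enzyme that reduces progesterone to a less active steroid. Its reads numbered 378, 390 and 371 in shControl and 694, 730 and 750 in shRNF11. Scaled, these were 9.76, 10.2 and 9.58 CPM against 18.6, 19.2 and 19.8 CPM. The lowest shRNF11 library thus stood well above the highest control, and the values within each arm lay close together. The means were 9.84 ± 0.301 CPM and 19.2 ± 0.582 CPM (SD, n = 3 each), a ratio of 1.95 (log2 fold change 0.96, SE 0.0920).

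AKR1C2 (Entrez 1646) encodes an enzyme that inactivates the androgen dihydrotestosterone. It had 184, 146 and 191 reads in shControl and 411, 365 and 471 in shRNF11, or 4.75, 3.81 and 4.93 CPM against 11.03, 9.60 and 12.4 CPM. All 3 shRNF11 libraries were above all 3 controls, although the values within each arm were more scattered than those of AKR1C1. The means of 4.498 ± 0.605 CPM and 11.02 ± 1.41 CPM differed 2.45-fold (log2 fold change 1.29, SE 0.133). The coefficient of variation of AKR1C2 was 13.4% in shControl and 12.8% in shRNF11, where counting error alone gives 7.59% and 4.90%. For AKR1C1 it was 3.06% and 3.03%, within the 5.13% and 3.71% that counting error gives.

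AKR1C3 (Entrez 8644) encodes an enzyme that makes testosterone from androstenedione and prostaglandin F from prostaglandin H or D. Its reads were 653, 656 and 673 in shControl and 1219, 1274 and 1162 in shRNF11, or 16.9, 17.1 and 17.4 CPM against 32.7, 33.5 and 30.7 CPM. The arms did not overlap, and the control libraries were almost level. Mean expression was 17.1 ± 0.260 CPM in shControl and 32.3 ± 1.47 CPM in shRNF11, 1.89 times as much (log2 fold change 0.92, SE 0.0707).

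**Figure D1:**
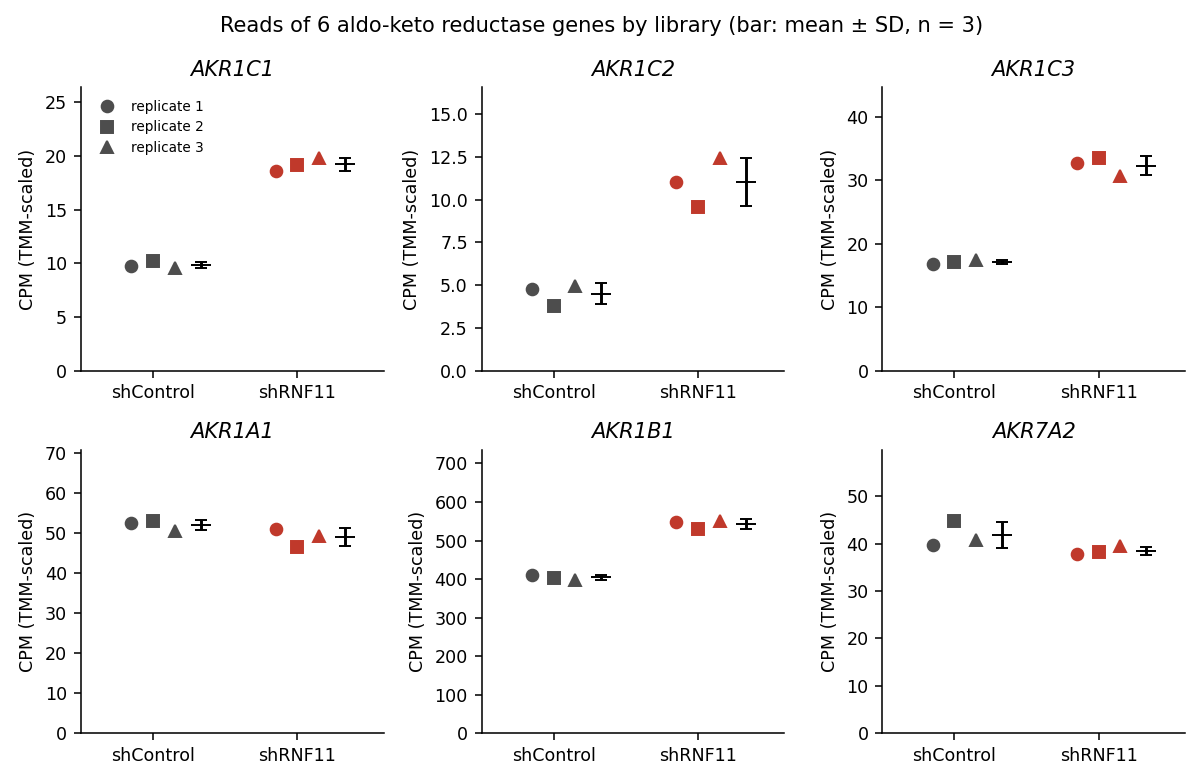
Scaled reads (CPM, y axes from 0, with a scale of their own in each panel) of the 6 genes in the 3 shControl (grey) and 3 shRNF11 (red) libraries, with marker shapes for replicate numbers and the mean ± SD beside each arm. AKR1C1, AKR1C2, AKR1C3 and AKR1B1 were above every control in every shRNF11 library, while AKR1A1 overlapped and the arms of AKR7A2 nearly touched.

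AKR1B1 (Entrez 231) encodes aldose reductase, which turns glucose into sorbitol in the polyol pathway and also has prostaglandin F synthase activity. It had 15930, 15449 and 15436 reads in shControl and 20415, 20127 and 20900 in shRNF11, the largest counts among the 6 genes. In CPM these were 411.4, 402.9 and 398.7 against 547.8, 529.1 and 551.3. The arms were far apart for their spread: 404.4 ± 6.47 CPM against 542.7 ± 11.9 CPM (SD, n = 3 each), a 1.34-fold difference (log2 fold change 0.42, SE 0.0262). AKR1B1 thus lay with the AKR1C genes in direction and below them in size, unlike the other two reductases outside the AKR1C branch.

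AKR1A1 (Entrez 10327) encodes aldehyde reductase, which acts on glucuronate and, in mouse, serves vitamin C synthesis. Its libraries held 52.5, 53.1 and 50.6 CPM in shControl and 51.1, 46.6 and 49.1 CPM in shRNF11. The arms overlapped, since shRNF11 1 exceeded the lowest control. The log2 fold change was -0.09 with an SE of 0.0512.

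AKR7A2 (Entrez 8574) encodes a reductase of succinic semialdehyde and of the dialdehyde formed from aflatoxin. It was measured at 39.6, 44.8 and 40.8 CPM in shControl and 37.8, 38.1 and 39.5 CPM in shRNF11. The arms did not overlap, but the highest shRNF11 library lay directly under the lowest control. The log2 fold change of AKR7A2 was -0.12 with an SE of 0.0570.

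By an edgeR adjusted p under 0.05, 4 of the 6 genes passed as higher and 0 as lower, beside 32.1% of all tested genes that passed in either direction, 17.4% as higher and 14.7% as lower. The arms did not overlap for 5 of the 6 genes, beside 42.8% of all tested genes. Because this contrast had chosen the genes, nothing is read from these counts. In the order of log2 fold changes among 13489 genes, counted from the highest, AKR1C2 had rank 69, AKR1C1 rank 146, AKR1C3 rank 171 and AKR1B1 rank 663. The tested genes as a whole had a median of -0.00793 on this scale, with the 5th percentile at -0.62 and the 95th at 0.42.

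**Figure D2:**
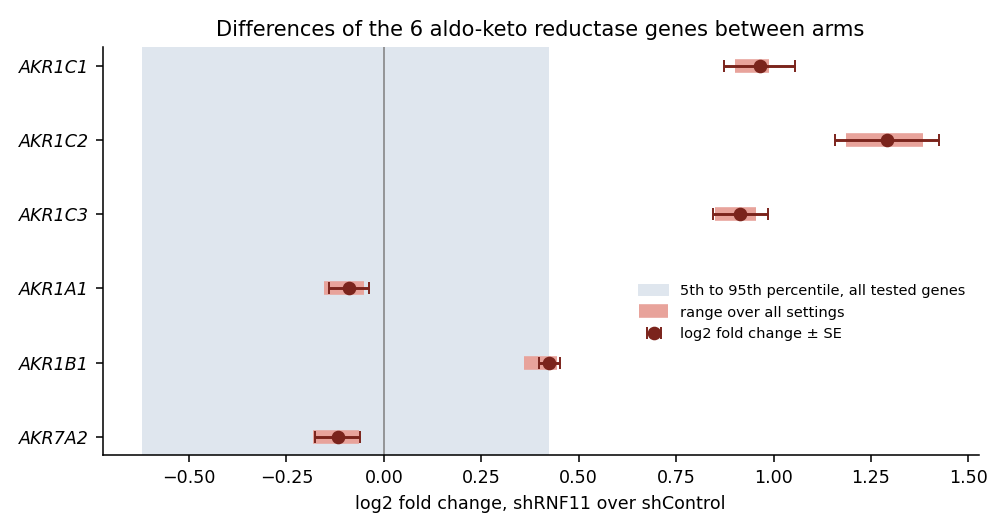
Log2 fold changes (x axis, shRNF11 over shControl) of the 6 genes with their standard errors (dark bars) and their range over the settings tried (pale bars), against the span from the 5th to the 95th percentile of all tested genes (shaded). The 3 AKR1C genes lie beyond the 95th percentile of 0.42, AKR1B1 at it, and AKR1A1 and AKR7A2 slightly below 0.

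Without library shRNF11 1 the log2 fold changes were 0.99 for AKR1C1, 1.29 for AKR1C2, 0.91 for AKR1C3 and 0.42 for AKR1B1. For AKR1A1 the value became -0.12 and for AKR7A2 -0.10. Leaving out each library in turn gave 1.19 to 1.38 for AKR1C2, 0.95 to 0.99 for AKR1C1 and 0.89 to 0.96 for AKR1C3. The value of AKR7A2 ranged more widely for its size, from -0.15 to -0.06, and that of AKR1A1 from -0.12 to -0.05.

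The AKR1C genes are close copies of one another, so the division of reads among them is uncertain. Summed in each library before the same fit, a step chosen after seeing the data, their reads gave a log2 fold change of 0.99 (SE 0.0519), or 1.99-fold. The 3 genes together held 1215, 1192 and 1235 reads in shControl and 2324, 2369 and 2383 in shRNF11. The sum of reads assigned to any of the 3 genes thus differed between arms with little scatter. How reads that match more than 1 copy were counted was not given in the sources used here.

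The division itself moved little. AKR1C3 took 53.7%, 55.0% and 54.5% of the summed reads in shControl and 52.5%, 53.8% and 48.8% in shRNF11. AKR1C1 took 31.1%, 32.7% and 30.04% against 29.9%, 30.8% and 31.5%. The share of AKR1C2 was 15.1%, 12.2% and 15.5% in shControl and 17.7%, 15.4% and 19.8% in shRNF11, so its arms overlapped. Its lowest share, 12.2%, had a 95% Wilson interval of 10.5% to 14.2%, and its highest, 19.8%, one of 18.2% to 21.4%, which cover counting error only. Mean shares were 14.3% ± 1.77 and 17.6% ± 2.18 for AKR1C2 and 54.4% ± 0.647 and 51.7% ± 2.60 for AKR1C3 (SD, n = 3 each).

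**Figure D3:**
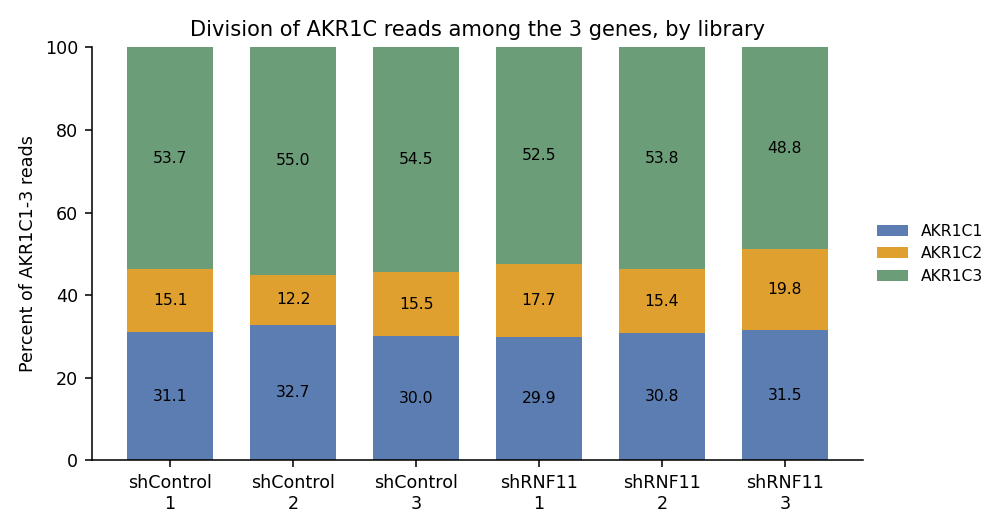
Percent of the summed AKR1C1, AKR1C2 and AKR1C3 reads (y axis, stacked to 100) that fell on each gene, in each of the 6 libraries (x axis). AKR1C3 held between 48.8% and 55.0%, and AKR1C2 between 12.2% and 19.8%, with overlap between the arms.

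In the table's own annotation the 6 genes carried 110 different gene ontology terms, of which 4 were common to all: the cytosol, an NADP-dependent alditol oxidoreductase activity, and the metabolism of the anticancer drugs doxorubicin and daunorubicin. The alditol term was given to only 10 genes of the whole table. The 3 AKR1C genes had 14 terms in common, and 9 of those were on none of the other 3 members, among them bile acid binding, progesterone metabolism and androsterone dehydrogenase activity. Prostaglandin metabolism was shared by the 3 AKR1C genes and AKR1B1.

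Genes whose profiles lay closest to those of the AKR1C genes were sought by the root mean square distance of log2 CPM over the 6 libraries, relative to the control mean, among 9995 genes with at least 5 CPM on average. Closest to AKR1C1 were OLR1, a receptor for oxidized low density lipoprotein (distance 0.0364), CDC42EP3, an effector of the GTPase CDC42 (0.0629), and GSTCD, named for its glutathione S-transferase C-terminal domain (0.0706). AKR1C3 itself was 0.0758 from AKR1C1. The 3 genes were picked as the nearest of 9995, and the distance rests largely on the difference between arms. That difference had chosen the members, so nothing is read from these genes being nearer to AKR1C1 than AKR1C3 is. Closest to AKR1C3 were the placental alkaline phosphatase gene ALPP (0.0570), which also has close copies, then SECTM1, a secreted and transmembrane protein gene (0.0620), and OLR1 (0.0718). AKR1C2 had no neighbour as close: the actin-binding ABLIM3 lay at 0.0958, ADPRHL1 at 0.104 and the metallothionein gene MT1F at 0.12997. The reads of AKR1C2 were the fewest among the 6 members, with coefficients of variation of 13.4% and 12.8% within arms. How far this adds to its distances was not tested. OLR1 had 35.6 ± 1.54 CPM in shControl and 69.8 ± 1.07 CPM in shRNF11, a log2 fold change of 0.97 beside the 0.96 of AKR1C1.

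The rest of the superfamily was sparse. Of 12 other symbols 7 were listed and 3 could be tested. KCNAB2, a potassium channel subunit with the aldo-keto reductase fold, rose from 33.5 ± 1.45 to 37.8 ± 1.37 CPM (SD, n = 3 each), by 0.18 on the log2 scale with an SE of 0.0590 (edgeR adjusted p = 0.0179), a call that was lost with library totals as the scale and without shControl 2 or shRNF11 3. KCNAB3 did not pass at 1.48 ± 0.393 against 2.32 ± 0.290 CPM (log2 fold change 0.64, edgeR adjusted p = 0.0655), although it passed at 0.88 without shControl 3. Nor did AKR7A3, the close relative of AKR7A2, pass at 0.708 ± 0.163 against 0.582 ± 0.205 CPM (edgeR adjusted p = 0.674).

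The other 4 listed relatives had too few reads to be tested. AKR1B10, a reductase of retinal and aldehydes that is close to AKR1B1, had 0, 3 and 5 reads in shControl and 18, 7 and 6 in shRNF11. AKR1B15 had 0, 9 and 1 against 1, 1 and 1 reads, and KCNAB1 had 4, 2 and 11 against 5, 0 and 0. AKR1C4, the form of the AKR1C family known from liver, had 3 reads in shControl 2 and 0 in the other 5 libraries, where a count of 0 allows up to 0.0775 to 0.0805 CPM. AKR1D1, AKR1E2, AKR7L and AKR1C8, also under its older name AKR1C8P, were not listed.

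Enzymes that share steroids with the AKR1C family included higher and lower members. Of 16 tested steroid-metabolising enzymes outside the superfamily, 2 rose, 3 fell and 11 did not pass (1 and 3 with library totals as the scale). The share that changed, 31.2%, was near the 32.1% of all tested genes, and the median log2 fold change was 0.00463 beside -0.00793 over all genes. CYP11A1, which cleaves the side chain of cholesterol to start steroid synthesis, fell from 5.84 ± 0.870 to 3.25 ± 0.581 CPM (log2 fold change -0.85, SE 0.171, edgeR adjusted p = 9.46e-05). H6PD, which supplies NADPH inside the endoplasmic reticulum, was at 42.7, 47.5 and 45.6 CPM in shControl and 33.4, 31.5 and 32.2 CPM in shRNF11, so that every control was higher. Its fall was 1.40-fold (edgeR adjusted p = 1.71e-09). The steroid sulfatase gene STS fell 1.16-fold, while HSD17B10, a mitochondrial dehydrogenase, rose 1.13-fold. SRD5A1, the steroid reductase that acts just before AKR1C enzymes on testosterone and progesterone, rose 1.10-fold, a call lost with library totals as the scale.

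The table gives the 6 genes 14 KEGG terms, and their other genes were counted after the data had been seen. Beside these counts, 17.4% of all tested genes rose and 14.7% fell. The term on most members, the 3 AKR1C genes and AKR1A1, was chemical carcinogenesis by reactive oxygen species: of 187 other tested genes 72 rose and 12 fell, with a median log2 fold change of 0.08. Of 18 other tested genes in steroid hormone biosynthesis, the term that all 3 AKR1C genes carry, 1 rose and 4 fell, with a median of -0.15. Of 23 others in ovarian steroidogenesis, a term of AKR1C3, 2 rose and 7 fell (median -0.27). Of 26 others in arachidonic acid metabolism, also a term of AKR1C3, 7 rose and 2 fell (median 0.00866). Of the terms on 2 members each, xenobiotic metabolism by cytochrome P450 had 6 of 23 others higher and 3 lower, and folate biosynthesis 4 and 5 of 17. Pentose and glucuronate interconversions had 3 and 3 of 11, and glycerolipid metabolism 10 and 6 of 39. Among terms of AKR1A1 alone, glycolysis had 18 and 4 of 42, pyruvate metabolism 16 and 5 of 32, and ascorbate metabolism 4 and 1 of 7. Among those of AKR1B1 alone, galactose metabolism had 6 and 1 of 20, and fructose and mannose metabolism 4 and 4 of 27. Chemical carcinogenesis by DNA adducts, a term of AKR1C2 alone, had 5 and 3 of 21.

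Prostaglandin genes were mostly without a called change, with one exception of size. Of 13 tested, 2 rose, 1 fell and 10 did not pass (1 and 2 with library totals, and 3 and 0 without shRNF11 1), which is 23.1% beside 32.1% of all genes, with a median of 0.12. PTGES, which makes prostaglandin E from prostaglandin H, had 163.0, 155.8 and 162.5 CPM in shControl and 287.2, 283.5 and 279.0 CPM in shRNF11. The arms were far apart, with a 1.77-fold rise (log2 fold change 0.82, SE 0.0312, edgeR adjusted p = 1.64e-27). PTGES3, a cochaperone also credited with that activity, rose 1.09-fold, a call lost with library totals. PLA2G4A, the phospholipase that frees arachidonic acid, fell 1.23-fold (edgeR adjusted p = 0.0264), a call lost when shControl 1, shControl 3, shRNF11 1 or shRNF11 3 was left out. PTGS2, the inducible cyclooxygenase, chosen after its values were seen, was at 4.22 ± 0.588 and 3.43 ± 1.30 CPM and did not pass (edgeR adjusted p = 0.264), although it passed as lower without shRNF11 2 (log2 fold change -0.64 in place of -0.30).

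Short-chain carbonyl reductases, which share carbonyl substrates with the aldo-keto reductases but have another fold, had 1 of 18 tested members higher, 3 lower and 14 that did not pass (22.2% changed beside 32.1% of all genes; 0 and 5 with library totals; median -0.04). CBR1 rose 1.10-fold, a call lost with library totals. DHRS11 fell 1.37-fold, from 25.03 ± 1.33 to 18.3 ± 0.564 CPM (edgeR adjusted p = 3.74e-06), DHRS1 fell 1.26-fold and DCXR, the xylulose reductase, 1.15-fold.

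Aldehyde dehydrogenases, which oxidize the aldehydes that aldo-keto reductases reduce, changed in both directions. Of 14 tested, 4 rose and 5 fell (64.3%, beside 32.1% of all genes, median -0.06). The 32.1% covers tested genes of all read depths. With genes under a mean of 5 CPM left out, 4037 of 10065 passed. How far read depth adds to the share that changed, here and in the other lists, was not tested. ALDH1B1 rose 1.25-fold, ALDH1A3, an enzyme of retinoic acid synthesis, 1.21-fold and ALDH7A1 1.201-fold, while ALDH3B1 fell 1.18-fold. All 4 had an edgeR adjusted p of 2.07e-06 or less.

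Enzymes that supply NADPH, the cofactor of the family, included 8 of 19 that rose, 2 that fell and 9 that did not pass. That is 52.6% changed beside 32.1% of all genes, of which 17.4% rose and 14.7% fell, and the list's median was 0.0165. TALDO1 and TKT of the pentose phosphate pathway rose 1.24-fold and 1.15-fold, the mitochondrial folate enzyme MTHFD2 1.16-fold, the malic enzyme ME1 1.196-fold and RPIA 1.29-fold. All 5 had an edgeR adjusted p of 4.33e-05 or less.

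The NRF2 pathway and its targets outside the superfamily had 15 of 29 tested members higher, 4 lower and 10 that did not pass (65.5% changed beside 32.1% of all genes; median 0.15). With library totals as the scale the split was 13 and 6. The thiol peroxidase PRDX1 rose from 630.8 ± 7.40 to 817.5 ± 15.9 CPM, thioredoxin (TXN) from 213.4 ± 5.54 to 277.9 ± 8.34 CPM and the export pump ABCC2 from 48.0 ± 2.69 to 69.7 ± 0.864 CPM, that is by 1.30, 1.30 and 1.45 times. All 3 had an edgeR adjusted p of 6.12e-13 or less. Other classical targets, chosen after their values were seen, went different ways: NQO1 rose 1.11-fold and GCLM 1.197-fold, SLC7A11 fell 1.21-fold and GCLC 1.08-fold, and HMOX1 did not pass at 8.35 ± 0.694 and 7.71 ± 0.751 CPM. The call on GCLC was lost with DESeq2, with its size factors, with no filter, and without shControl 1, shControl 2, shRNF11 2 or shRNF11 3. NFE2L2, which encodes NRF2, had 108.7 ± 6.42 and 111.7 ± 2.12 CPM and did not pass (edgeR adjusted p = 0.481). The list shares members such as TALDO1, TKT and ME1 with the NADPH list. Whether NRF2 activity differed between the arms, or bears on the AKR1C genes here, was not tested.

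Around AKR1B1, the polyol and osmolyte list had 2 of 8 tested genes higher, 3 lower and 3 that did not pass (62.5% changed beside 32.1% of all genes; 1 and 4 with library totals; median -0.09). SORD, which turns the sorbitol made by AKR1B1 into fructose, had 56.4, 51.6 and 55.4 CPM in shControl and 69.2, 68.2 and 61.1 CPM in shRNF11. It rose 1.22-fold with no overlap (edgeR adjusted p = 1.31e-05). NFAT5, the factor known to induce AKR1B1 under osmotic stress, fell 1.26-fold from 98.3 ± 4.64 to 77.8 ± 1.78 CPM (edgeR adjusted p = 5.31e-09). HSPA4L fell 1.10-fold, SLC38A2 1.06-fold and the channel gene AQP3 rose 1.18-fold. The call on AQP3 was lost with library totals, and that on SLC38A2 without shControl 1, shControl 2 or shRNF11 2.

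Around AKR1A1 and AKR7A2, the glucuronate and semialdehyde list had 2 of 10 tested genes higher, 6 lower and 2 that did not pass (80.0% changed beside 32.1% of all genes, of which 14.7% fell; 1 and 7 with library totals; median -0.22). UGP2, which makes UDP-glucose, rose 1.39-fold from 79.5 ± 3.87 to 110.4 ± 4.90 CPM (edgeR adjusted p = 3.11e-13). ALDH5A1, which oxidizes the succinic semialdehyde that AKR7A2 reduces, fell 1.17-fold, the glucuronidase gene GUSB 1.16-fold, HAGH, an enzyme of methylglyoxal clearance, 1.22-fold and the xylulose kinase gene XYLB 1.25-fold. The largest edgeR adjusted p among these 4 was 0.00143. Over all the related lists, 122 different genes were tested, of which 32 rose and 25 fell, beside 17.4% and 14.7% of all tested genes. Among them 0 had a log2 fold change as high as the 0.92 of AKR1C3, and PTGES came nearest. The AKR1C genes were chosen with their differences known, so nothing is read from that comparison.

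**Figure D4:**
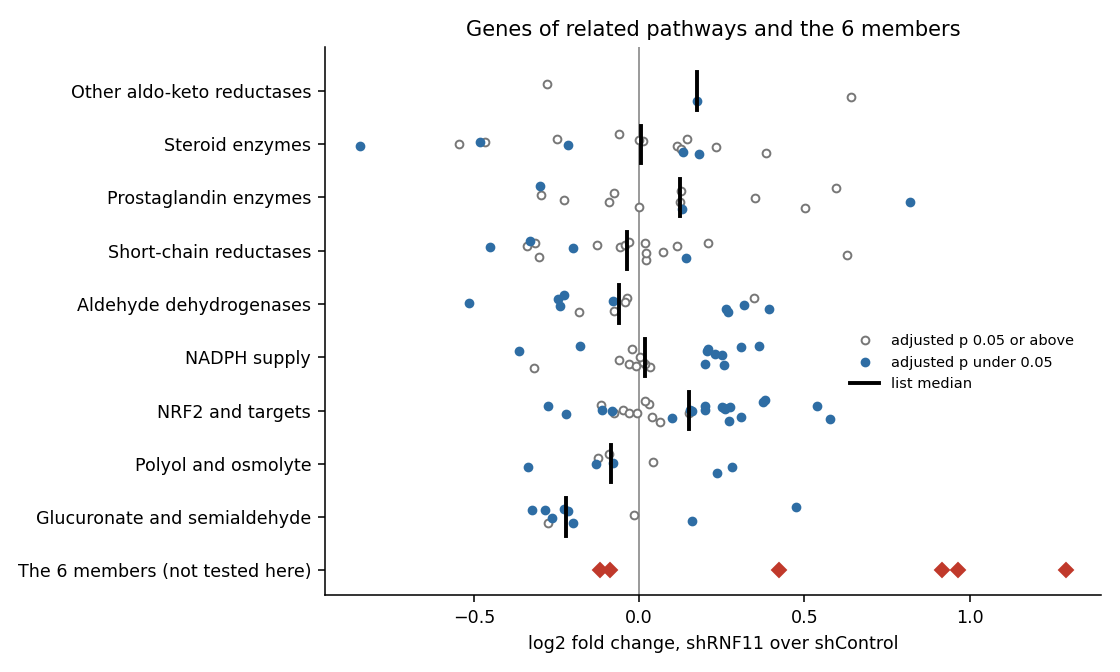
Log2 fold changes (x axis, shRNF11 over shControl) of the tested genes in 9 lists of related enzymes (rows, scattered vertically for clarity), filled where the edgeR adjusted p was under 0.05, with each list's median as a bar and the 6 members as diamonds. The lists lie between -0.85 (CYP11A1) and 0.82 (PTGES). The diamonds of the 3 AKR1C genes, which were chosen with this contrast known, lie to the right of all of them.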

How the data were processed

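RNA was sequenced in 6 libraries, 3 per arm, grouped and numbered by their titles. Values are raw counts of reads for each gene, as deposited by the authors without normalization. fastp, HISAT2 and HTSeq are named without versions or roles in the submitters' processing notes. Genome build, annotation and strand use were not given in the sources used here. References at hand were of mouse, so no coordinates or sequences of these human-named genes are given.

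Genes were kept by filterByExpr (minimum count 10). After TMM scaling, all 13489 genes were fitted by arm, with no other term, in edgeR 4.0.16 (R 4.3.3; quasi-likelihood test, 2-sided), and p-values were adjusted by Benjamini-Hochberg (threshold 0.05). SE is the absolute log2 fold change over the square root of F. The common biological coefficient of variation was 4.82%. The script was tested on simulated data. Chi-square statistics per gene were 3.79 to 5.85 within arms and 21.4 to 23.8 between them, so no library was a duplicate.

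The members and lists were chosen with earlier results of these data known. Named are the members, all listed relatives, RNF11, up to 5 changed genes with the smallest p per list, and the 3 nearest profiles per AKR1C gene, passing over LOC and clone-named symbols. Alternatives were DESeq2-type factors, library totals, no filter, a mean of 5 CPM, DESeq2 1.42.0, the replicate number as a block, and each library left out. All per-sample columns were used.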

Additional observations from a re-analysis of the deposited data

How the results depend on the processing

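The direction of each of the 6 members was the same in every setting run. With library totals as the scale, which moved the median of all tested genes from -0.00793 to -0.0722, the log2 fold changes were 0.90 for AKR1C1, 0.85 for AKR1C3, 0.36 for AKR1B1 and -0.15 for AKR1A1, each further from the main value than the spread between replicates, and 0 of the other aldo-keto reductase genes passed. Summing the AKR1C rows gave 0.99, away from the 1.29 of AKR1C2 and the 0.92 of AKR1C3 by more than that spread. Leaving out single libraries gave 0 to 2 changed genes among the other aldo-keto reductases, and 3478 to 3978 changed genes in all beside 4336. Library totals gave 1335 higher and 3255 lower genes beside 2348 and 1988. The replicate block gave a log2 fold change of 1.29 for AKR1C2 and 4399 changed genes, and it changed no call named here. The deviations of same-numbered libraries correlated at -0.0159, -0.00586 and -0.00714, so no pairing by number showed over all tested genes. Such values cannot exclude a shared culture or batch that acts on few genes. DESeq2 gave 4105 changed genes. Depth limits AKR1C4, AKR1B10, AKR1B15 and KCNAB1, which had too few reads for a test.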
